A study of Mus musculus with 8 samples.

Results

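The mRNA library of mature B cells was compared with that of pro-B cells, the first and the last stage that the study sorted from bone marrow. Of the 22298 genes in the mRNA table, 8398 had no counts in either library and 5235 had some but fewer than 20 over both, which left 8665 genes for the comparison. The level of a gene is its CPM, the count divided by its library's mRNA total and scaled to 1000000, and the comparison is the ratio of the mature B level to the pro-B level. A gene was called higher or lower in mature B cells at a ratio of 2-fold or more. There was 1 library per stage, so no ratio has a replicate check and no p-value is given.

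The study sorted 4 stages of B cells by FACS from the bone marrow of female wild-type C57BL/6 mice aged 8 to 10 weeks, and sequenced an rRNA-depleted, strand-specific RNA library of each. Pro-B cells were gated as B220+IgM-CD43+, pre-B cells as B220+IgM-CD43-, immature B cells as B220+IgM+CD43- and mature B cells as B220hiIgM+CD43-. The cells of 3 mice were pooled in each library, so a library gives no spread between animals. No group carried a genetic change or a treatment, and differences between the sorted populations cover both the stage and whatever other cells each gate admitted.

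B cells are made in the bone marrow in ordered steps. Pro-B cells join the V, D and J segments of the heavy chain gene with the RAG recombinase, and pre-B cells test the new heavy chain with a surrogate light chain and then divide before they rearrange a light chain gene. Mature B cells recirculate between blood, lymphoid organs and marrow, rest outside of division, carry IgM and IgD, and take up antigen to show it to T cells on MHC class II molecules.

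The mRNA counts summed to 867920 in the pro-B library and 849350 in the mature B library, which made up 23.7% and 23.5% of the summed mRNA and lncRNA counts. The pre-B and immature B libraries held 240231 and 223495 mRNA counts, 6.48% each of their summed counts, so their levels rest on fewer reads and are shown only beside those of the 2 compared libraries. An order that involves these libraries depends on the scaling, since dividing by their small mRNA totals raises their CPM against the deposited FPKM values. A count of 3 corresponded to 3.46 CPM in pro-B cells, 12.5 CPM in pre-B cells, 13.4 CPM in immature B cells and 3.53 CPM in mature B cells. Where a gene had no count in a library, its ratio was computed against 3 counts and is a bound. Most low counts were even, with 80.6% of whole counts from 1 to 12 in pro-B cells and 81.5% in mature B cells, as when both mates of a read pair are counted. The 95% intervals below are therefore exact binomial intervals on the counts divided by 2, and they cover counting error only. Bounds at 3 counts do not take this into account, and with 3 pairs as the floor each bound would be a factor of 2 nearer to 1. The words at least mark a ratio against 3 counts, and the interval of such a gene reaches closer to 1. For Fcer2a the ratio was 122 against 3 counts, with a lower interval bound of 49.1.

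All 5 marker genes stood on the side of their stage. The markers and the gene lists below were chosen with earlier results of these data known, so this is no independent check of the labels. Dntt, the terminal transferase that adds bases at V(D)J joints, was at 974 CPM in pro-B cells and had no count in pre-B, immature B or mature B cells. Rag1, the catalytic subunit of the recombinase, was at 918, 372, 0 and 1.18 CPM from pro-B to mature B cells. Il7r, the receptor chain for the growth factor IL-7, was at 218, 133, 35.8 and 2.35 CPM, or 11.4, 1.57, 0.67 and 0.11 FPKM. The 3 pro-B markers were thus near or at 0 in the mature B library. Cd74, the invariant chain that escorts MHC class II molecules, was at 516, 375, 3257 and 7482 CPM. H2-Aa, the alpha chain of the class II molecule I-A, was at 86.6, 83.3, 484 and 1627 CPM, and both class II markers were highest in mature B cells.

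Of the 8665 genes, 993 (11.5%) were higher in mature B cells and 1822 (21.0%) were lower, so that 64.7% of the called genes were lower. For the gene lists below, the share of a list is set against that of all genes. The median log2 ratio over all genes was -0.16, with a middle range from -0.83 to 0.42 between the quartiles. At 4-fold or more, 305 genes (3.52%) were higher and 737 (8.51%) lower. The genes called higher held 4.81% of the pro-B counts and 17.3% of the mature B counts, and the genes called lower held 18.1% and 4.95%. The call itself fixes the direction of these shares. The interval on read pairs left out a ratio of 1 for 749 of the higher genes and 1413 of the lower genes. Of the 3995 genes with 100 or more counts, 404 were higher and 485 lower, a more even split than over all genes. Scaling by edgeR's TMM factors, which fit the bulk of the genes, moved every log2 ratio up by 0.15 and gave 1183 higher and 1576 lower genes, with 57.1% of called genes lower.

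At the cut itself, the 235 genes with 20 to under 22 counts were kept and the 261 genes with 18 to under 20 counts were left out. The genes called had few counts, with a median of 72.6 over both libraries among those higher and 54.0 among those lower, beside 89.0 over all genes compared. Against 0 counts in pro-B cells, 32 of the higher ratios were bounds, and against 0 counts in mature B cells 145 of the lower ones. These genes reached 20 counts through the other library alone, so the filter fixed their call. The plot of ratios by level shows where the main gene groups lie among all genes.

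**Figure D1:**
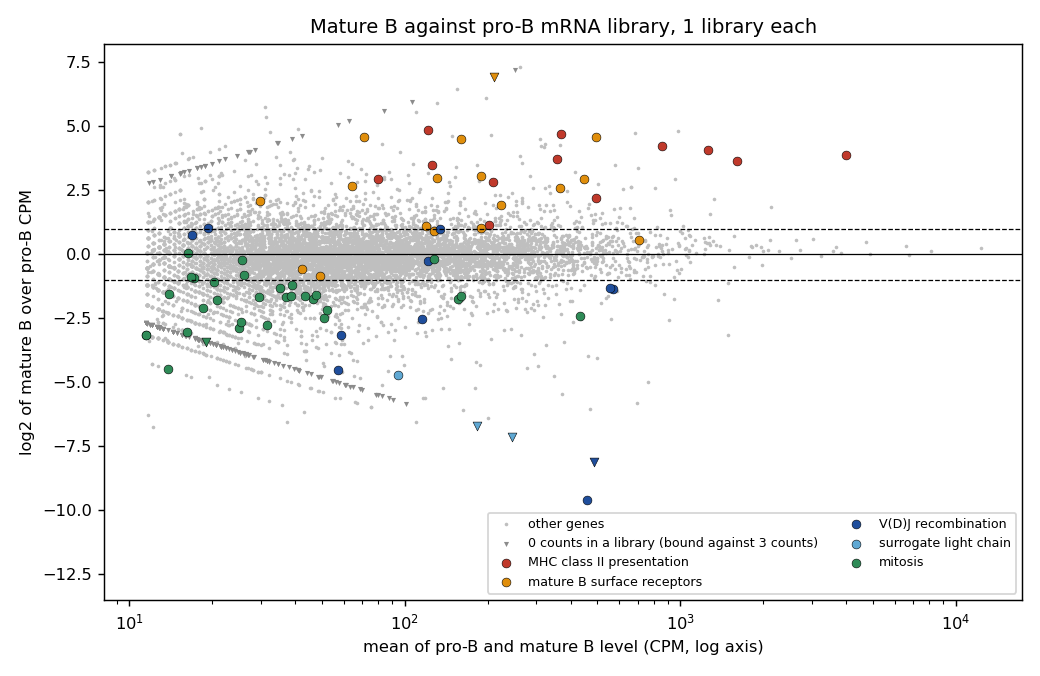
Ratio of mature B to pro-B CPM on the log2 scale (vertical) against the mean of both levels in CPM (horizontal, log axis), 1 point per gene for 8665 genes. Triangles are genes with no count in a library, set against 3 counts, and dashed lines mark 2-fold. The 12 genes of MHC class II presentation lie above the upper line, and Rag1 and Dntt are the lowest points.

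The class II genes had the highest list median of the comparison, and all of their promoters but one that could be read held a CCAAT box, so a stretch of each is shown first. The CCAAT box is bound by the factor NF-Y and forms part of the promoter of class II genes, where it is known as the Y box, while a CHR element (TTTGAA) and the E2F core (GCGGGAA) are known from genes of mitosis and of DNA replication. Each motif was searched on both strands in windows from 250 bases before to 50 bases after the gene start, taken from RefSeq on build GRCm38.p6. CCAAT or its reverse ATTGG was found in 37.4% of all 32851 windows of that length, GCGGGAA or TTCCCGC in 4.60%, and TTTGAA or TTCAAA in 17.9%. Of the 12 class II list members 9 had a window, and 8 of these 9 genes held CCAAT, against 43.5% of the 6921 compared genes with a window. These 8 lie on chromosome 17 and hold ATTGG on the strand of the gene. Stretches of 30 bases from 7 of these genes, each 5′ to 3′ on the gene's strand with the CCAAT box in capitals, are:
H2-Eb1, chr17:34305788-34305817, plus strand: gctggactcctttgatgctgATTGGctccc
H2-Aa, chr17:34287862-34287891, minus strand: catcacaagagaattttctgATTGGttctg
H2-Ob, chr17:34238828-34238857, plus strand: atgcaaagtcttcgctcttgATTGGttaac
H2-DMb1, chr17:34153110-34153139, plus strand: ctaggctgattcactcagtgATTGGtctga
H2-DMb2, chr17:34145139-34145168, plus strand: ctaggctaagtcacttagtgATTGGactga
H2-Eb2, chr17:34325555-34325584, plus strand: gctggtgctcttggctgctgATTGGttctt
H2-Oa, chr17:34092316-34092345, plus strand: tatctcagagaactgctctgATTGGctgct

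In these 7 genes the printed box began 43 to 100 bases before the gene start. H2-Eb1 held a second box, read as CCAAT, that began 35 bases before its start, and in H2-DMa it began 198 bases before it. Of the genes called higher in mature B cells, 40.7% of the 760 with a window held CCAAT, and of the genes called lower 46.7% of 1453. The motif was thus no more common among the higher genes as a whole than among all compared genes. A match describes the letters of the window and not the binding of a factor.

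All 12 measured genes of MHC class II presentation were higher in mature B cells, with log2 ratios from 1.15 to 4.86 and a median of 3.68. The background was 11.5% of genes higher and a median of -0.16. The summed level of the list was 1465 CPM in pro-B cells, 849 CPM in pre-B cells, 5310 CPM in immature B cells and 17889 CPM in mature B cells. The classical chains H2-Ab1, H2-Aa and H2-Eb1, which form the molecules I-A and I-E, counted 208, 75 and 123 in the pro-B library and 2516, 1382 and 2023 in the mature B library. Their ratios were 12.4-fold (10.1 to 15.3), 18.8-fold (13.4 to 26.5) and 16.8-fold (12.9 to 21.9). Cd74 was 14.5-fold higher (12.7 to 16.7).

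Per transcript length, class II genes were among the strong mRNAs of the mature B library. Cd74 stood at 973 FPKM (fragments scaled to transcript length and depth) there, H2-Ab1 at 525, H2-Eb1 at 290 and H2-Aa at 240, beside 381 FPKM for Ighm. Ciita, the coactivator that turns on class II genes, had 43, 3, 3 and 563 counts from pro-B to mature B cells and was 13.3-fold higher (8.48 to 21.2). In immature B cells Ciita was at 12.7 CPM, under the 13.4 CPM of 3 counts, so its level there is uncertain. Cd74 was at 3257 CPM in that library, or 113 FPKM beside 66.9 FPKM in pro-B cells. H2-DMa, H2-DMb1 and H2-DMb2, whose products load peptide, were 7.08-fold, 11.2-fold and 25.7-fold higher. H2-Oa and H2-Ob, whose products restrain that loading, were 7.66-fold and 4.52-fold higher. H2-Eb2 had 7 counts in pro-B and 199 in mature B cells, and Ctss, the protease that trims the invariant chain, had the smallest ratio of the list at 2.22-fold (1.61 to 3.14).

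**Figure D2:**
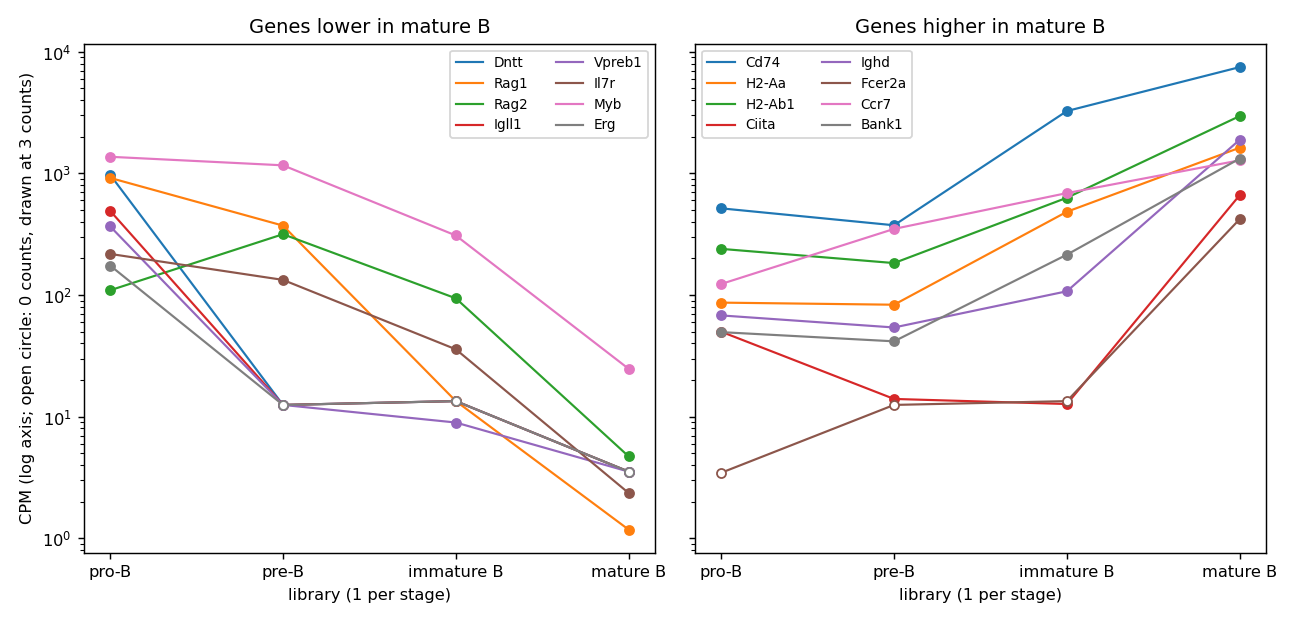
Level in CPM (log axis) of 8 genes lower and 8 genes higher in mature B cells, in the libraries of the 4 stages, 1 library each. Open circles are libraries with no count, drawn at the level of 3 counts. Dntt, Igll1 and Erg are filled only in pro-B cells, and Fcer2a only in mature B cells. Levels of the pre-B and immature B libraries depend on their small mRNA totals, and the CPM peak of Rag2 in pre-B cells is not found in its FPKM values.

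Of the 8 genes of immunoglobulin constant regions and the BCR core, 6 were higher in mature B cells and none lower, with a median log2 ratio of 2.80. Ighm, the heavy chain of IgM, had 3276 counts in pro-B and 3314 in mature B cells, a ratio of 1.03 (0.965 to 1.11). IgM on the surface was part of the gate, and its mRNA level did not separate the populations. Ighd, the heavy chain of IgD, had 59, 13, 24 and 1607 counts from pro-B to mature B cells and was 27.8-fold higher (19.0 to 40.9). Igkc, the kappa light chain, had 26 counts in pro-B cells and stood at 159 CPM in pre-B, 579 in immature B and 336 in mature B cells. Its ratio of mature B to pro-B cells was 11.2-fold (6.37 to 21.6). Iglc1, Iglc2 and Iglc3, the lambda constant genes, which are near copies of each other and may share reads, were 9.45-fold, 7.57-fold and 6.38-fold higher. Of the signalling chains of the receptor, Cd79a was just past the cut at 2.06-fold higher (1.65 to 2.58) and Cd79b stayed within 2-fold at 1.19-fold.

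Of 34 measured immunoglobulin segments, a list that shares genes with the one above, 21 were higher (61.8% against 11.5%) and 3 lower (8.82% against 21.0%). The median log2 ratio was 1.82. The 3 lower ones included the switched constant genes Ighg2b, with 38 and 6 counts, and Ighg2c, with 36 and 10 counts. The third was the V segment Ighv6-3, with 17 and 4 counts. Single V segments are similar in sequence and their counts may be split among them.

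Surface receptors of mature B cells were the next group, with 13 of 17 genes higher (76.5% against 11.5%) and none lower. Their median log2 ratio was 2.57. Fcer2a, which encodes CD23, the low-affinity receptor for IgE, had no count in pro-B, pre-B or immature B cells but 358 in the mature B library, at least 122-fold higher. Fcer2a was kept through that library alone, so the filter fixed its call. Cr2 (CD21), a complement receptor, had 12, 15, 18 and 261 counts and was 22.2-fold higher (9.90 to 61.4). Cd83, an activation marker, went with 35, 2, 19 and 809 counts and was 23.6-fold higher (14.3 to 39.1). Icosl, the ligand of ICOS on T cells, had 5 counts in pro-B and 116 in mature B cells. These 4 genes had 20 counts or fewer in the immature B library.

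Other receptors of the list were present earlier. Ms4a1 (CD20) had 90, 10, 227 and 673 counts. It was higher in immature than in mature B cells by CPM, at 1016 and 792, and lower by FPKM, at 14.0 and 41.4. Il4ra, the receptor for IL-4, was 5.93-fold higher (4.33 to 8.30), and Tnfrsf13c, the receptor for the survival factor BAFF, was 2.04-fold higher with 108 and 215 counts. Cd38, Cd37, Tnfrsf14 and Cd1d1 stayed within 2-fold. The 13 genes that were higher therefore differed in the stage at which their counts appeared.

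Of 17 homing and egress receptors, 9 were higher (52.9% against 11.5%) and 3 lower (17.6% against 21.0%), with a median log2 ratio of 1.42. Cxcr5, the receptor that guides B cells into follicles, had no count in the first 3 stages and 180 in mature B cells, at least 61.4-fold higher. Ccr6 had no count in those stages and 59 in mature B cells, at least 20.1-fold higher. Cxcr5 and Ccr6 were kept through the mature B library alone, so the filter fixed their call. Ccr7, which guides cells to the T cell zone, had 107, 84, 154 and 1088 counts and was 10.4-fold higher (7.77 to 13.9). Cnr2, a cannabinoid receptor, had 4, 2, 20 and 183 counts. S1pr1, which serves exit from lymphoid organs, was 2.89-fold higher (2.31 to 3.64). Cxcr4, the receptor that holds precursors in the marrow, was within 2-fold at 1093 CPM in pro-B and 1460 CPM in mature B cells. Selplg, S1pr4 and the integrin chain Itgb1 were lower, with 197 and 43, 74 and 22, and 183 and 77 counts.

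The recombination genes were lower as a group. Of 11 measured, 7 were lower in mature B cells (63.6% against 21.0% of all genes) and 1 higher (9.09% against 11.5%). The median log2 ratio was -1.36. Dntt had 845 counts in pro-B and none in mature B cells, at least 276-fold lower. Dntt was kept through the pro-B library alone, so the filter fixed its call. Rag1 had 797 counts in pro-B and 1 in mature B cells, a ratio of 780.0 with a lower interval bound of 105. Rag2, the partner of Rag1, had 95, 76, 21 and 4 counts, or 109, 316, 94.0 and 4.71 CPM. By FPKM Rag2 was at 7.41, 4.21, 1.38 and 0.22, so it was highest in pro-B cells by count and FPKM and in pre-B cells by CPM only.

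Among genes that close the breaks, Lig4, the ligase, had 92 and 10 counts, a log2 ratio of -3.17, and Xrcc6 (Ku70) was 5.83-fold lower (3.40 to 11.5). Hmgb1 and Hmgb2, which help the recombinase to bend DNA, were 2.47-fold and 2.57-fold lower. Dclre1c (Artemis), with 115 and 94 counts, Prkdc, with 78 and 151 counts, and Xrcc4, with 11 and 18 counts, stayed within 2-fold. Xrcc5 (Ku80) was 2.04-fold higher on 11 and 22 counts, with an interval from 0.635 to 6.17 that holds 1. The 2 Ku subunits therefore stood on opposite sides of 1, that of Xrcc5 on few counts.

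All 3 measured surrogate light chain genes were lower (100% against 21.0%), with a median log2 ratio of -6.70 that rests on 2 bounds. Igll1 and Vpreb1 reached 20 counts through the pro-B library alone, so the filter fixed their call. Igll1 (lambda 5) had 427 counts in pro-B cells and none in the other 3 libraries, at least 139-fold lower. Vpreb1 had 318, 0, 2 and 0 counts, at least 104-fold lower. Vpreb3, which binds nascent light chains, was at 182, 295, 456 and 6.91 CPM. By count (158, 71, 102 and 6) and by FPKM (46.6, 19.7, 31.0 and 1.78) it was highest in pro-B cells, and it differed from the other members in its counts in the stages between. Per length, Igll1, Dntt and Vpreb1 stood at 90.3, 79.6 and 76.4 FPKM in the pro-B library, above Rag1 at 22.2 FPKM.

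Receptors of progenitors were lower in 8 of 11 measured genes (72.7% against 21.0%) and higher in 1 (9.09% against 11.5%). Their median log2 ratio was -2.42. Il7r had 189, 32, 8 and 2 counts, a ratio of 92.5 with an interval from 16.1 to 3672. Flt3 and Kit, receptors for early growth factors, had 34 and 27 counts in pro-B and 4 and 8 in mature B cells. Il2ra (CD25), a marker of pre-B cells, had 59, 20, 6 and 2 counts. Cd93 was 7.58-fold lower (4.94 to 12.1) and Cd24a 2.97-fold lower (2.50 to 3.51). Spn, which encodes CD43, was 5.36-fold lower with 208 and 38 counts. CD43 was part of the gate, so this ratio is no finding, though Spn counts among the 8 lower genes. Ly6a (Sca-1) was 2.23-fold higher on 22 and 48 counts.

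Markers of other cell types are given beside these results. Of 19 markers of T and NK cells, 8 reached 20 counts, and 7 of these were lower in mature B cells (87.5% against 21.0%). Most of the 7 reached 20 counts through the pro-B library, so the filter fixed their call. The list summed to 612 CPM in pro-B, 54.5 in pre-B, 89.6 in immature B and 60.3 CPM in mature B cells. The granzyme gene Gzma had 106 counts in pro-B cells and none in the others, and Il2rb, Klrk1 and Ncr1 had 119, 44 and 39 counts there and at most 2 in another library. The T cell receptor genes were near 0 in pro-B cells, with 2 counts for Trac, 2 for Cd3g and none for Cd3d and Cd3e. The list therefore stood high in pro-B cells by its NK cell genes.

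Of 11 markers of plasmacytoid dendritic cells, which carry B220 too, 6 reached 20 counts and 5 of these were lower in mature B cells (83.3% against 21.0%). The filter fixed the call of members kept through the pro-B library alone, such as Siglech. Their list summed to 760, 83.3, 179 and 104 CPM from pro-B to mature B cells. Siglech, the defining gene, had 105, 0, 4 and 0 counts, Runx2 had 299, 4, 2 and 16, and Ccr9 had 140, 14, 20 and 40. Granulocyte and monocyte markers summed to 2213 and 1794 CPM in pro-B and mature B cells, with 3 of 14 (21.4%) lower, near the 21.0% of all genes, and none higher. Erythroid markers summed to 681 and 356 CPM with 3 of 7 lower (42.9% against 21.0%). Plasma cell markers summed to 836 and 686 CPM with 3 of 5 lower (60.0% against 21.0%). Stromal and endothelial markers, at 394 and 478 CPM, had 2 of 7 higher (28.6% against 11.5%) and 2 lower (28.6% against 21.0%). No basophil or mast cell marker reached 20 counts. The part of these cells in the genes lower in mature B cells was not tested, and fewer cells of a type cannot be told apart from less RNA per cell in such libraries.

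**Figure D3:**
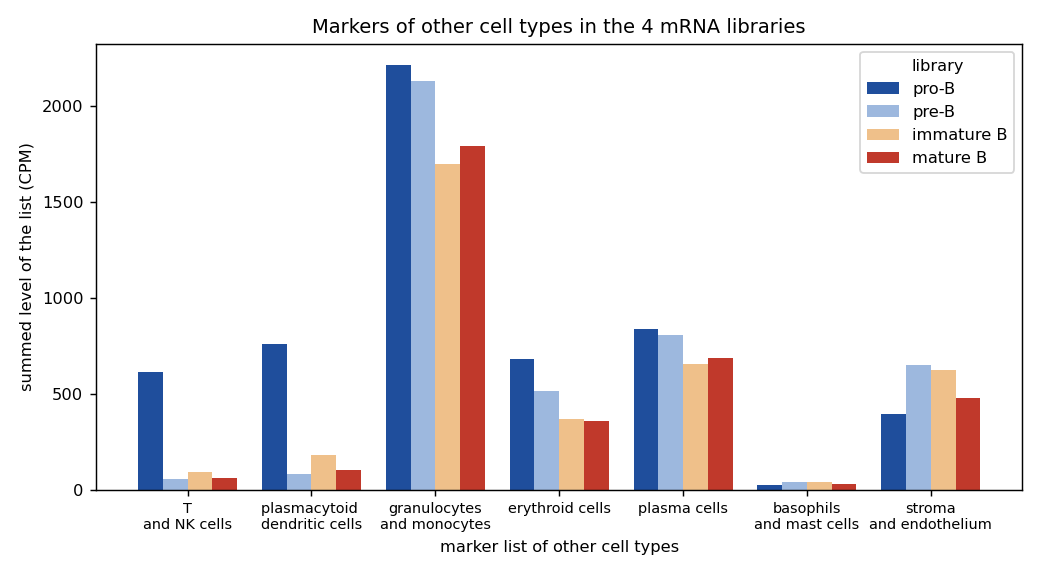
Summed level in CPM of the markers of 7 other cell types in the 4 mRNA libraries, 1 bar per library. The T and NK cell list stands at 612 CPM in pro-B cells and below 90 CPM in the others, and the plasmacytoid dendritic cell list at 760 CPM in pro-B cells and at most 179 CPM in the others.

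Of 24 B-lineage transcription factors, 7 were lower and 4 higher in mature B cells, shares of 29.2% and 16.7% beside 21.0% and 11.5% over all genes. The median log2 ratio of -0.41 was likewise near that of all genes. The list was split by member rather than shifted as a whole. Myb, a factor of progenitors, was at 1370, 1166, 309 and 24.7 CPM, or 67.4, 15.5, 4.20 and 1.12 FPKM. By CPM it was 55.4-fold lower in mature B cells (31.4 to 122). Erg had 152 counts in pro-B cells and none in the other libraries, at least 49.5-fold lower. Erg was kept through the pro-B library alone, so the filter fixed its call. Lef1 had 303, 0, 0 and 8 counts and was 37.1-fold lower (14.2 to 138). Sox4 was at 671, 1324, 349 and 24.7 CPM and was 27.1-fold lower (15.3 to 60.0). Its order over the stages between depends on their small mRNA totals.

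The E proteins Tcf3 and Tcf4, which drive early B cell genes, were 2.67-fold and 2.92-fold lower, and Spib was 2.08-fold lower. Tcf4 and Spib are known from plasmacytoid dendritic cells as well, whose markers were lower in mature B cells too. Tcf4 was at 419, 91.6, 90.4 and 144 CPM from pro-B to mature B cells. Spib was at 344, 577, 682 and 165 CPM, or 36.69, 16.32, 21.98 and 22.94 FPKM. It was thus highest in immature B cells by CPM and in pro-B cells by FPKM. The part of plasmacytoid dendritic cells in the ratios of Tcf4 and Spib was not tested. The 4 factors that were higher were Pou2f2 (OCT2) at 4.98-fold, Bcl6 at 3.53-fold, Ikzf3 (Aiolos) at 3.51-fold and Mef2c at 2.74-fold. Factors that hold B cell identity were high in both libraries. Pax5 was at 1187 CPM in pro-B and 1958 CPM in mature B cells, and Ebf1 at 1180 and 771 CPM. Bach2 had 767 and 779 counts, the smallest difference of the list.

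Of 9 Id proteins and Kruppel-like factors, 2 were higher (22.2% against 11.5%) and 3 lower (33.3% against 21.0%), with a median log2 ratio of 0.34. Klf4, known for resting cells, was 2.52-fold higher (1.91 to 3.40) and Klf3 had 72 and 146 counts. Id3, an inhibitor of E proteins, was 3.24-fold lower (1.83 to 6.08), and Id2 and Klf7 were lower on 23 and 7, and 71 and 26 counts. Klf2, a factor of quiescence and homing, stayed within 2-fold with 224 and 371 counts.

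**Figure D4:**
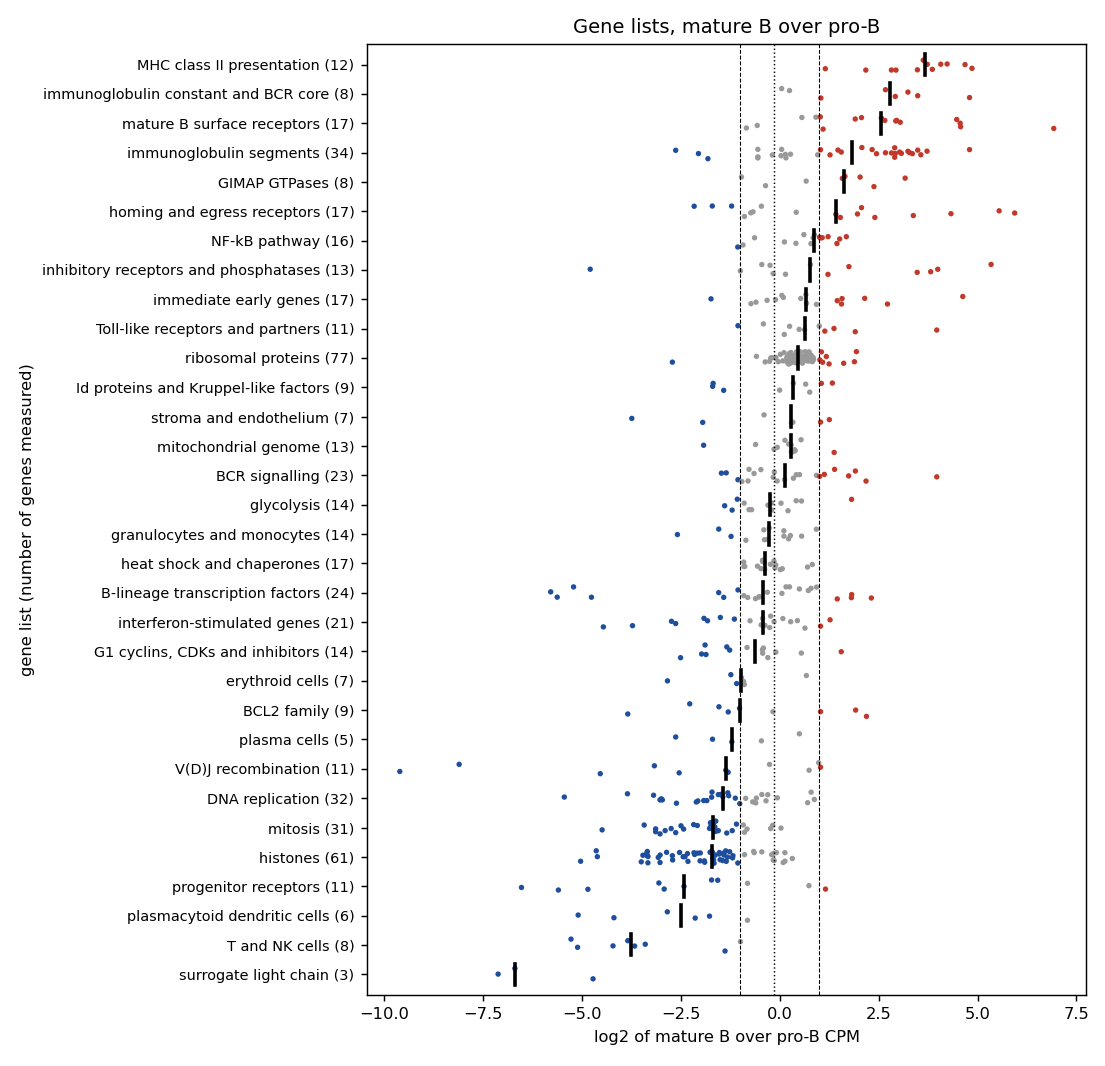
Ratio of mature B to pro-B CPM on the log2 scale for the genes of each list, with the number of measured genes in parentheses, 1 point per gene. Black bars are list medians, the dotted line is the median of all 8665 genes (-0.16), dashed lines mark 2-fold, and red and blue points are genes called higher and lower. Class II genes have the highest list median (3.68) and the surrogate light chain the lowest (-6.70).

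Genes of cell division were lower in mature B cells. Of 32 measured genes of DNA replication, 21 were lower (65.6% against 21.0%) and none higher, with a median log2 ratio of -1.45. Their summed level was 3556, 3508, 1349 and 1571 CPM from pro-B to mature B cells. Single members did not all share the high pre-B sum, and Mcm6 was at 468 CPM in pro-B and 221 in pre-B cells, or 25.2 and 3.06 FPKM. Mcm6, a subunit of the replicative helicase, had 406 and 92 counts and was 4.32-fold lower (3.12 to 6.09). Uhrf1, which keeps DNA methylation through replication, had 134, 0, 0 and 3 counts, a ratio of 43.7 with an interval from 8.73 to 276. Cdc6, which loads the helicase, had 59 and 4 counts, and Rrm1, a subunit of ribonucleotide reductase, had 270 and 94. The filter fixed the call of members kept through the pro-B library alone, such as Cdc45 with 28 counts and none. Pcna, the sliding clamp, was close to the cut at 2.02-fold lower (1.43 to 2.89). Cdt1, Rpa1 and Rfc1 were above their pro-B level but within 2-fold, with log2 ratios of 0.70, 0.79 and 0.87. Under the TMM scaling 1 gene of the list was higher and 19 lower.

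Of 31 measured genes of mitosis, 25 were lower (80.6% against 21.0%) and none higher, with a median log2 ratio of -1.68. They summed to 2556, 1082, 670 and 771 CPM. The filter fixed the call of members kept through the pro-B library alone, such as Tpx2 with 33 counts and none. Mki67, a marker of cycling cells, had 634 counts in pro-B and 115 in mature B cells and was 5.40-fold lower (4.03 to 7.20). Top2a, the topoisomerase of mitotic chromosomes, was 3.07-fold lower (2.04 to 4.59), and Kif23, a kinesin of cytokinesis, had 23 counts and 1. Aurka, Smc4 and Nusap1 stayed within 2-fold, with 14 and 14, 118 and 102, and 24 and 20 counts. With deposited FPKM values in place of CPM, 21 genes of the list were lower and 1 higher.

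TTTGAA was found in the windows of 25 of the 32 mitosis genes with a promoter in the table (78.1%), against 14.7% of all compared genes with a window. Among genes called lower in mature B cells it was in 17.4%, and among those called higher in 13.7%. GCGGGAA was found in 13 of 32 replication genes (40.6%) and in 10.1% of all compared genes. It was no more common among genes called lower, at 9.98%, than among all compared genes. Stretches of 30 bases from genes named above show the element in capitals, 5′ to 3′ on the strand of the gene, with TTCCCGC as the reverse of the E2F core:
Mki67, chr7:135716486-135716515, minus strand: cgcagcacttagcgccagaaTTTGAAccgc
Top2a, chr11:99024359-99024388, minus strand: aacaattgctattggtccatTTTGAAgatt
Rrm1, chr7:102441608-102441637, plus strand: tatggcggcaggagaactcgTTCCCGCcag
Uhrf1, chr17:56303269-56303298, plus strand: cgccccacttgctttctcgcTTCCCGCcac

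**Figure D5:**
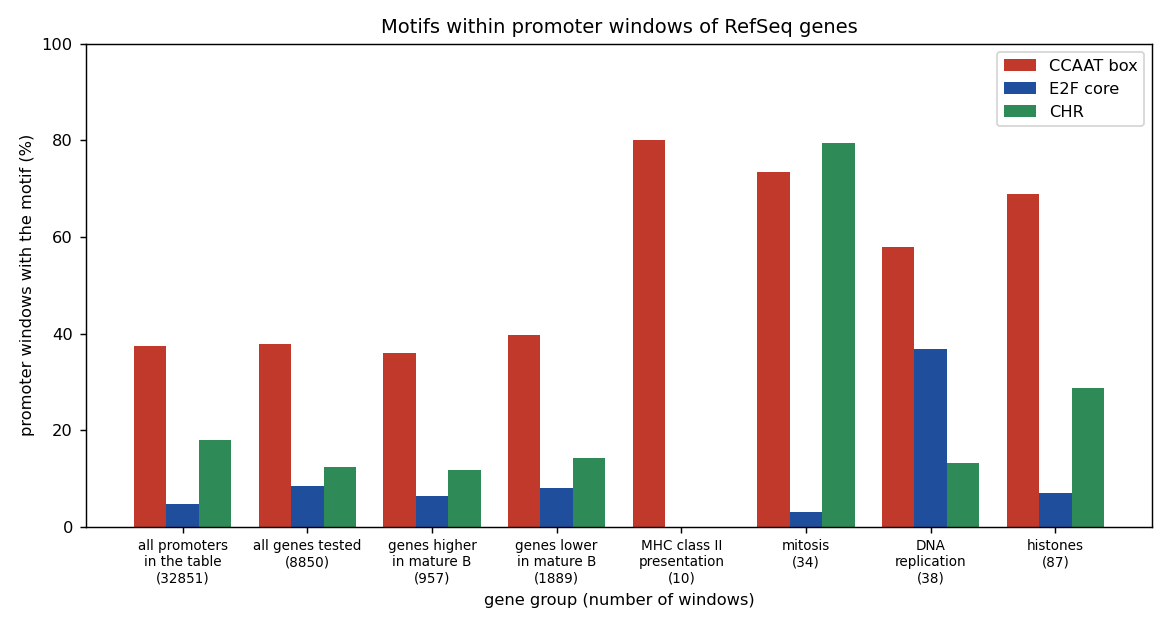
Share in percent of promoter windows that hold the CCAAT box, the E2F core or the CHR element, by gene group, with the number of windows in parentheses. The CCAAT box is in 80.0% of class II windows, the CHR element in 79.4% of mitosis windows and the E2F core in 36.8% of replication windows, beside 37.4%, 17.9% and 4.60% of all windows.

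Of 61 measured histone genes, 48 were lower (78.7% against 21.0%) and none higher, with a median log2 ratio of -1.71. They summed to 6773 CPM in pro-B, 11417 in pre-B, 5664 in immature B and 3453 CPM in mature B cells. By count the sums were 5878, 2743, 1266 and 2933, highest in pro-B cells. The replacement histones H3f3a and H3f3b, which are made outside of S phase, were within 2-fold at 892 and 957, and 620 and 550 counts. H1f3, a linker histone, had 253 and 61 counts, and H2aw had 101 and none, at least 32.8-fold lower. The filter fixed the call of H2aw, which was kept through the pro-B library alone. Histone genes are near copies of each other and their estimated counts may be split among them, so single members are uncertain. CCAAT was found in 59 of 86 histone genes with a window (68.6%), in 23 of 32 mitosis genes (71.9%) and in 20 of 32 replication genes (62.5%), against 43.5% of all compared genes, so it was not particular to the class II genes.

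Of 14 cyclins, kinases and inhibitors of G1, 6 were lower (42.9% against 21.0%) and 1 higher (7.14% against 11.5%). This list had a median log2 ratio of -0.63. The kinase Cdk6 had 314 and 83 counts and was 3.70-fold lower (2.59 to 5.27). Its partners Ccnd1, Ccnd2 and Ccnd3 had 95, 106 and 197 counts in pro-B and 16, 41 and 49 in mature B cells. Ccne1 was 2.94-fold higher on 8 and 23 counts, with an interval from 0.929 to 13.0 that holds 1. The inhibitor Cdkn1b stayed within 2-fold at 186 and 135 counts.

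Of 9 measured genes of the BCL2 family, 5 were lower (55.6% against 21.0%) and 3 higher (33.3% against 11.5%). The list had a median log2 ratio of -1.02. The survival genes stood on opposite sides. Bcl2l1 (BCL-XL) had 88, 40, 10 and 6 counts and was 14.3-fold lower (4.60 to 72.3), while Bcl2 had 30, 0, 4 and 111 counts and was 3.78-fold higher (2.13 to 7.26). Mcl1, a survival gene needed throughout, had 637 and 553 counts. Of the genes that promote death, Pmaip1 (NOXA) was 4.57-fold higher (2.12 to 9.59), and Bmf and Bcl2l11 (BIM) were lower with 92 and 31, and 182 and 88 counts.

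Of 23 measured genes of BCR signalling, 7 were higher (30.4%) and 3 lower (13.0%), beside 11.5% and 21.0% of all genes, and the median log2 ratio was 0.12 beside -0.16. Malt1, a protease on the way to NF-kB, had 84, 16, 55 and 371 counts and was 4.53-fold higher (3.21 to 6.45), while its partner Bcl10 stayed within 2-fold with 92 and 98 counts. Rasgrp3, an activator of Ras, had 10 and 153 counts, and the kinase Blk and the lipase Plcg2 had 66 and 216, and 90 and 230 counts. Blnk, the adaptor of the receptor, was 2.56-fold lower (1.95 to 3.37) and Pik3ap1 2.08-fold lower. The kinases Syk, Lyn and Btk stayed within 2-fold with 657 and 816, 281 and 368, and 106 and 59 counts.

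Inhibitory receptors and phosphatases were higher in 6 of 13 measured genes (46.2% against 11.5%) and lower in 1 (7.69% against 21.0%). Their median log2 ratio was 0.78. Cd22, which binds sialic acid and dampens the receptor, had 83, 10, 85 and 903 counts and was 11.1-fold higher (8.01 to 15.5). Btla had 30, 0, 38 and 417 counts and was 14.1-fold higher (8.39 to 25.8). Siglecg had no count in the first 3 stages and 47 in mature B cells, at least 15.9-fold higher. Lair1, the 1 lower gene, had 85, 0, 0 and 0 counts, at least 27.7-fold lower. Siglecg and Lair1 were each kept through 1 of the compared libraries alone, so the filter fixed their call. Ptpn6 (SHP-1), the phosphatase that several of these receptors recruit, had 229 and 753 counts. Ptprc, which encodes the antigen B220 used in the gate, had 252 and 574. Its ratio is thus no finding, though Ptprc counts among the 6 higher genes.

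Of 16 measured genes of the NF-kB pathway, 7 were higher (43.8% against 11.5%) and 1 lower (6.25% against 21.0%; median log2 ratio 0.86). Rel, the subunit c-Rel of mature B cells, had 415 and 1161 counts and was 2.86-fold higher (2.43 to 3.36). Traf3 and Map3k14 (NIK), a regulator and the kinase of the noncanonical arm, had 49 and 154, and 42 and 112 counts. Relb was higher on 39 and 89 counts, and Nfkb1 and Rela stayed within 2-fold. Nfkbiz was the 1 lower gene, with 273 and 128 counts.

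Of 17 immediate early genes, which cells turn on within minutes of a stimulus, 6 were higher (35.3% against 11.5%). Only 1 was lower (5.88% against 21.0%), and the median log2 ratio was 0.66. Egr3 had 10, 0, 14 and 242 counts and was 24.7-fold higher (10.3 to 77.5). Nr4a1 (NUR77), known as a readout of antigen receptor signals, had 115, 0, 29 and 743 counts and was 6.60-fold higher (4.96 to 8.80). Junb had 425 and 1842 counts, and Fos and Fosb had 203 and 544, and 215 and 626. Jun was 3.34-fold lower (2.83 to 3.95) with 1268 and 372 counts, so members of the AP-1 family stood on opposite sides. None of 17 heat shock and chaperone genes was higher or lower, against 11.5% and 21.0% of all genes, and their median log2 ratio was -0.38. With FPKM ratios 2 of these 17 were lower.

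Of 11 measured Toll-like receptors and partners, 4 were higher (36.4% against 11.5%) and 1 lower (9.09% against 21.0%), with a median log2 ratio of 0.63. Tlr9, the sensor of bacterial DNA motifs, had 116 and 250 counts, a log2 ratio of 1.14. Tlr1 had 4 and 61 counts, Tlr7 had 43 and 65, and the adaptor Myd88 was lower on 54 and 25 counts. Of 8 GIMAP GTPases, which serve lymphocyte survival, 5 were higher (62.5% against 11.5%) and none lower, with a median of 1.62. Gimap3 had 21 and 185 counts and Gimap8 had 40 and 204.

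Of 21 interferon-stimulated genes, 8 were lower (38.1% against 21.0%) and 2 higher (9.52% against 11.5%), with a median log2 ratio of -0.43. Bst2, an antiviral membrane protein that is also a marker of plasmacytoid dendritic cells, had 259, 18, 40 and 38 counts and was 6.67-fold lower (4.12 to 11.5). Ifi44, Rsad2 and Isg15 had 45, 27 and 19 counts in pro-B and 2, 2 and 3 in mature B cells. The plasmacytoid dendritic cell markers were lower in the same library, and their part in it was not tested.

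Of 14 glycolysis genes, 3 were lower (21.4%) and 1 higher (7.14%), near the 21.0% and 11.5% of all genes, with a median log2 ratio of -0.25, and the glucose transporters stood on opposite sides with 73 and 31 counts for Slc2a3 and 36 and 124 for Slc2a1. Of 77 ribosomal protein genes, 8 were higher (10.4% against 11.5%) and 1 lower, a share below the 21.0% of all genes. The share of higher genes was thus near that of all genes, and the list differed by its lack of lower ones. The list had a median of 0.45 and a summed level of 26145 CPM in pro-B and 36511 CPM in mature B cells. The lower one was Rpl22l1, with 36 and 5 counts. Of 13 genes of the mitochondrial genome, 1 was higher and 1 lower (7.69% each, against 11.5% and 21.0%), with a median of 0.29.

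Outside of the lists, the genes with the largest ratios among those with 100 or more counts included the following. Scd1, which makes monounsaturated fatty acids, had 3, 11, 133 and 441 counts, a ratio of 157.5 with an interval from 39.9 to 8919. Bank1, an adaptor of the BCR, had 43, 10, 48 and 1125 counts and was 26.7-fold higher (17.1 to 42.0). Pgap1, which remodels GPI anchors, had 14 and 335 counts, and Slc4a3 had 0, 0, 40 and 107.

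On the lower side, the adhesion receptor Adgrg1 (GPR56) had 804, 37, 10 and 12 counts and was 65.6-fold lower (29.9 to 180). Gfra1, a coreceptor for the growth factor GDNF, had 344, 61, 13 and 4 counts and was 84.2-fold lower (23.0 to 700.5). Tnfrsf19 had 157, 17, 2 and 0 counts, at least 51.2-fold lower. Elovl6, which elongates fatty acids, had 113 and 2 counts, Epb41l4b and the calcium channel subunit Cacna2d1 had 129 and 2 each, and the unnamed genes 2900026A02Rik and 2010300C02Rik had 279 and 4, and 114 and 2.

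By difference in level, Smarca4 (BRG1), the ATPase of the BAF chromatin remodeller, had the largest difference among the lower genes, with 2330, 290, 49 and 257 counts or 2685 CPM in pro-B and 303 CPM in mature B cells, 8.86-fold (7.36 to 10.7). Ucp2, a mitochondrial carrier, was at 2125 and 619 CPM, and Tifa, an adaptor of TRAF6, at 1476 and 45.9 CPM. Pde2a, which degrades cyclic nucleotides, and Cyfip2, of the actin-regulating WAVE complex, were 5.92-fold and 2.21-fold lower. Macf1, a linker of actin and microtubules, had 804 and 2851 counts and was 3.62-fold higher (3.24 to 4.06). Irs2, the insulin receptor substrate, had 192, 14, 0 and 1439 counts and was 7.67-fold higher (6.18 to 9.57).

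Some large ratios came from genes that most cells use and that were listed at or near 0 in the first 3 libraries. Ash1l, a histone methyltransferase, had 0, 0, 0 and 426 counts, and Fchsd2 had 0, 0, 0 and 143. Tpr, a protein of the nuclear pore, had 4, 0, 6 and 218 counts, Serp1, of the endoplasmic reticulum, 5, 8, 3 and 330, and Ino80d, of a chromatin remodeller, 3, 8, 4 and 260. Ptk2b (PYK2), a kinase of B cells, went the other way with 175, 30, 56 and 0. In all, 15 genes had no count in pro-B cells and 40 or more in mature B cells, and 57 had no count in mature B cells and 40 or more in pro-B cells. A count of 0 in an estimated table can be a failed estimate, so these ratios are given as listed.

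The genes with the most counts were nearly the same in both libraries. The first 2 were mt-Co1, with 9848 and 11278 counts, and Slc38a6, with 6753 and 7171, and Actb and Eef1a1 followed in both with Tmem72, Noct, Ighm, Eef2 and mt-Nd5. Of the first 10 in each library, Cd74 with 6355 counts was among those of mature B cells only, and mt-Nd6 among those of pro-B cells only.

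Circular RNAs were counted in the same 2 libraries from back-spliced reads, which the mRNA counts do not use. The 75 circRNAs whose host gene was higher in mature B cells had 59 back-spliced reads in pro-B and 292 in mature B cells, so that 83.2% (76.6 to 88.2) were in mature B cells. The 71 circRNAs of lower hosts had 267 and 104 reads, 28.0% (21.6 to 35.0) in mature B cells. These intervals pool the reads of a group and leave out the spread between hosts and between libraries. A circRNA of Ezh2 alone gave 38 of the 267 reads. The 354 circRNAs of hosts within 2-fold had 882 and 1013 reads, 53.5%, close to the 52.8% of all back-spliced reads. The back-spliced reads of a group of hosts were thus divided between the libraries in the same direction as the hosts' mRNA counts.

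Single circRNAs had few reads. The circRNA of Ezh2, the methyltransferase of Polycomb, had 38, 61, 27 and 8 reads in the order of the stages, where its host had 323, 40, 8 and 32 counts. A circRNA of Itsn2 had 1 and 14 reads, with 281 and 630 counts for its host. Other circRNAs parted from their host. A circRNA of Ikzf1 (Ikaros) had 3, 5, 14 and 24 reads while its host had 674 counts in pro-B and 458 in mature B cells, and a circRNA of Syk had 13 and 2 reads while its host had 657 and 816 counts.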

How the data were processed

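The RNA libraries of pro-B and mature B cells were compared, with those of pre-B and immature B cells shown beside them. Labels gave the stage of each. For mRNAs and lncRNAs, the authors deposited estimated counts without normalization. Their tools were fastp 0.18.0 for cleaning, Bowtie2 2.2.8 for rRNA removal, HISAT2 2.1.0 for mapping and StringTie 1.3.4 for estimation. The FPKM values deposited by the authors are scaled by transcript length and mapped fragments and served as an alternative and for levels per length. The circRNA counts deposited by the authors are back-spliced reads. The submitters' processing notes list build mm9 and Bowtie 0.12.2 without a role. No deposited coordinate was used. The miRNA table was not used here.

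Counts were divided by the total of their column. Genes with 20 or more counts over both columns were kept, a count of 0 was set to 3 for a bound, and a call needed a ratio of 2. Intervals are exact (Clopper-Pearson) at 95% on counts divided by 2, a choice made after the values were seen, and shares of back-spliced reads were treated in the same way. With 1 library per stage no test was run. The members and the gene lists were chosen with earlier results of these data known. Named are the 5 markers, the members of lists of 24 genes or fewer, the 4 genes with most counts and the 3 with the largest ratio in each direction of longer lists, the 15 largest ratios in each direction at 100 or more counts, the 10 highest levels per library and the 10 largest differences. Of the genes so named, a part is printed, and some are not reported here. Single circRNAs, with 12 or more reads over both libraries, and the motif stretches were chosen after values were seen. The scripts were tested on simulated data. Gene symbols are those of the mRNA table, and 6921 of 8661 symbols matched a RefSeq promoter window. Alternatives were edgeR 4.0.16 TMM factors, DESeq2 1.42.0 size factors, FPKM ratios and other minimum counts. Calculations used Python 3.11.15, numpy 2.4.6, pandas 2.3.3, scipy 1.17.1, matplotlib 3.10.9 and R 4.3.3.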

Additional observations from a re-analysis of the deposited data

How the results depend on the processing

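The counts of called genes depended most on the minimum count. With no minimum, 1884 genes were higher and 2793 lower, 4677 in all. With a minimum of 50 counts, 618 were higher and 989 lower, 1607 in all, and with 10 or more counts in each library 661 were higher and 978 lower, 1639 in all. These settings test more or fewer genes by construction. Under TMM factors, median-of-ratios size factors, a total without immunoglobulin genes and FPKM ratios the counts stayed within 1.5 times, at 1183, 1155, 996 and 1175 higher and 1576, 1615, 1817 and 1946 lower genes. The share of lower genes among those called was 57.1% under TMM factors and 58.3% under size factors. With FPKM ratios the median log2 ratio of the recombination genes was -1.91 and that of the mature B surface receptors 1.90, and the cause was not tested. FPKM and CPM log2 ratios differed by over 1 in 82 of 3166 genes with 50 or more counts in each library. The 5 markers and every list median kept their direction under TMM factors and FPKM ratios. No paired analysis was possible because each stage has 1 library.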

Other observations

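Among the genes with the most counts, 4 had counts that did not follow the mRNA total of the 4 libraries. From pro-B to mature B cells Slc38a6 had 6753, 7407, 4906 and 7171 counts, Tmem72 4254, 4454, 4791 and 4154, Noct 3442, 4318, 4786 and 4672, and mt-Nd6 2874, 2798, 2576 and 2692. The mRNA totals of the pre-B and immature B libraries were 240231 and 223495, beside 867920 and 849350 in the other two, while lncRNA counts were 2795519, 3469757, 3227162 and 2765507. This pattern was noticed after the values were seen. Since the pro-B and mature B libraries have nearly the same totals, these genes stayed within 2-fold between them, with log2 ratios from -0.06 to 0.47.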
